A study of Mus musculus with 6 samples.

Results

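The secreted adipokine genes *Adipoq*, *Retn*, *Rbp4*, and *Rarres2* were followed in mouse adipose-derived stem cells (ADSCs) under adipocyte differentiation with vehicle or with NJT-2. The members were chosen by name, and all 4 were found among the 4864 genes analysed. ADSCs are the stromal cells of adipose tissue that can become adipocytes, and they were prepared from the subcutaneous white fat of male C57BL/6J mice of wild-type genotype, whose age is not given in the sources used here. Cells of both groups received the same adipogenic medium with dexamethasone, insulin, 3-isobutyl-1-methylxanthine, indomethacin, and triiodothyronine, and the study harvests this culture model on differentiation day 8. The groups differed in NJT-2, which is saikosaponin A, a plant terpenoid that the study describes as an agonist of peroxisome proliferator-activated receptor gamma (PPARγ). In this culture model NJT-2 is used at 200 nM, and no concentration is stated for the sequenced cultures on their own. RNA was sequenced from 3 libraries labelled Control, called vehicle here, and 3 libraries labelled NJT2. Values given in a row follow replicates 1 to 3 of a group. The labels do not say that the libraries come from separate cultures or mice, so the p-values measure the spread between these libraries, which may be technical.

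Adipokines are proteins that fat cells release into the blood. Adiponectin, the product of *Adipoq*, is assembled into multimers in the endoplasmic reticulum and acts on liver and muscle to raise insulin sensitivity, and its gene is a known target of PPARγ. Resistin (*Retn*) opposes insulin action in mice, retinol-binding protein 4 (*Rbp4*) carries vitamin A through the blood, and chemerin (*Rarres2*) is a chemoattractant that also acts on adipocyte differentiation.

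In the build GRCm38, *Adipoq* (ENSMUSG00000022878) lies on the plus strand at chr16:23146536-23158028 and *Retn* (ENSMUSG00000012705) on the plus strand at chr8:3655770-3660110. *Rbp4* (ENSMUSG00000024990) lies on the minus strand at chr19:38116629-38125281, and *Rarres2* (ENSMUSG00000009281) on the minus strand at chr6:48569696-48572787. All are annotated as protein coding. The exons of *Rarres2* span 2656 bases, and 892 of them (33.6%) are also exon of *Lrrc61* on the other strand. The kit marked strand, but whether strand was used in counting is not given in the sources used here, so that reads of *Rarres2* and *Lrrc61* may not be told apart. *Lrrc61* was not analysed here. No exon base of the other 3 genes is shared with another gene.

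The sequences around the start sites of 3 members are shown because these 3 had higher values in every NJT-2 library than in any vehicle library. They come from RefSeq (GRCm38.p6) and run from 250 bases before to 50 bases after the start, and *Rarres2* has no entry there. The windows are chr16:23146286-23146585 on the plus strand for *Adipoq*, chr8:3655520-3655819 on the plus strand for *Retn*, and chr19:38124762-38125061 on the minus strand for *Rbp4*. Capitals mark matches to the letters searched.
Adipoq: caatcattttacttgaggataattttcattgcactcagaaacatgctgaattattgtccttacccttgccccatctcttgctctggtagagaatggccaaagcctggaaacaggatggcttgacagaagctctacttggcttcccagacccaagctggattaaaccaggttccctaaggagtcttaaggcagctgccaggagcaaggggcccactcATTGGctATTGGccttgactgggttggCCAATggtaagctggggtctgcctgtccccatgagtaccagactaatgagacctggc
Retn: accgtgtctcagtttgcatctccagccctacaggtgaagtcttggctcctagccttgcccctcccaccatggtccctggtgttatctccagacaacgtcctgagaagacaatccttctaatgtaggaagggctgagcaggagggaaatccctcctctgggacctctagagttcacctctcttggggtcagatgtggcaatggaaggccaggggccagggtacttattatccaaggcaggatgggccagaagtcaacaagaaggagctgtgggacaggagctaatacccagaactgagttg
Rbp4: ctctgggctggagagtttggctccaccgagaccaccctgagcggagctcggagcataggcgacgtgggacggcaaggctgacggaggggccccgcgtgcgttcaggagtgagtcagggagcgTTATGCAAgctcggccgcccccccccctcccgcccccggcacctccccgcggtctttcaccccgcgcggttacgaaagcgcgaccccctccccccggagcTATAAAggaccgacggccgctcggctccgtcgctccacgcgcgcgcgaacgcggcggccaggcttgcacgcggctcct

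The letters searched, on both strands, were AGGTCA for the core hexamer of nuclear receptors such as PPARγ and CCAAT for the box of that name. Also searched were TATAAA for the box that positions the start site and TTGCNNAA for a pattern of C/EBP factors. None of these overlaps another in the windows. AGGTCA was in none of the member windows and in 16.3% of all 32851 RefSeq windows of this length. The *Adipoq* window held CCAAT 3 times, with first bases at -34, -27, and -7 from the start and the first 2 on the opposite strand, against 37.4% of all windows with at least 1 match. The *Rbp4* window held TATAAA at -28, as did 13.6% of all windows at any position. It also held TTGCNNAA at -128 on the opposite strand, a match that 10.8% of all windows had. A second RefSeq window of *Rbp4*, at chr19:38125272-38125571, held CCAAT at -162 on the opposite strand. The *Rbp4* windows differed in base composition, with a GC content of 72.0% in the one shown and 40.7% in the second, against 50.0% for *Adipoq*, 54.0% for *Retn*, and a median of 52.7% over all windows. A match describes the letters only and no binding was measured.

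Each library had between 16093037 and 28929673 counts on the genes analysed, which held from 27.69% to 32.46% of each library. A library in each group stood apart. On log2(FPKM + 1) over the tested genes, the Euclidean distance of vehicle replicate 1 from vehicle replicates 2 and 3 was 53.8 and 71.3, while those were 27.7 apart. In the NJT-2 group, replicate 2 lay 58.0 and 55.3 from replicates 1 and 3, whose own distance was 11.8. The libraries differed in how their values varied with gene length. The Spearman correlation across genes of gene length with the log2 ratio to the NJT-2 mean was -0.384, -0.397, and 0.008 with vehicle against -0.176, 0.151, and -0.107 with NJT-2. The NJT-2 mean holds the NJT-2 libraries themselves, so these values are not on a par between the groups. A smooth trend with gene length was also fitted to each library's deviation from the mean of all 6 libraries. With that trend taken out, the log2 fold change was 7.21 for *Adipoq*, 3.53 for *Retn*, 4.40 for *Rbp4*, and -1.60 for *Rarres2*. The common biological coefficient of variation was 0.504. The test was edgeR's quasi-likelihood test of the counts, scaled by trimmed means of M values (TMM), over 3705 genes whose FPKM averaged 0.5 or more, and a gene was called at an adjusted p under 0.05 with an absolute log2 fold change over 1. FPKM is the count scaled for the length of the gene and the total of the library, and it is the scale for levels here. Of the tested genes, 0.567% were called higher and 0.135% were called lower with NJT-2, around a median log2 fold change of 0.02. All 4 members were tested, but *Adipoq* and *Retn*, with vehicle means under 0.5 FPKM, were in the tested set through their NJT-2 values. *Adipoq* and *Rbp4* were called higher and no member was called lower. With no filter, the log2 fold change was 6.58 for *Adipoq* (adjusted p = 0.00682, edgeR) and 2.69 for *Retn* (adjusted p = 0.232, edgeR).

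*Adipoq* was the member with the largest difference. Its FPKM was 0.38, 0.50, and 0.39 with vehicle against 64.63, 22.04, and 58.45 with NJT-2. The counts behind these values were 31, 62, and 38 with vehicle against 6334, 2133, and 5641 with NJT-2. Every NJT-2 library was above every vehicle library, and the lowest, replicate 2, was still far from the vehicle range. The mean FPKM was 0.423 ± 0.0666 (SD, n = 3) with vehicle against 48.4 ± 23.0 (SD, n = 3) with NJT-2. *Adipoq* rose with NJT-2 by 6.62 on the log2 scale (standard error, SE, 0.56, adjusted p = 0.0127, edgeR), a fitted fold of 98.2. It had the smallest p of the 3705 genes and the absolute log2 fold change of rank 4. In bulk RNA, fewer cells that express a gene and less of its RNA per cell cannot be told apart. The call was lost without vehicle replicate 1 (log2 fold change 6.72, adjusted p = 0.0617, edgeR) and without vehicle replicate 2 (6.63, adjusted p = 0.12, edgeR), while the direction and size stayed. In each of these fits, 0 of the 3705 tested genes were called higher.

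Ranked by FPKM among the tested genes, *Adipoq* stood at 3362, 3548, and 3643 with vehicle, near the end of the list. With NJT-2 it stood at 237, 681, and 261. These ranks are a description only, since a gene with a vehicle mean this low is among the tested genes only if it is higher with NJT-2.

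*Rbp4* rose as well. Its FPKM was 0.99, 1.14, and 0.84 with vehicle against 18.71, 15.14, and 10.90 with NJT-2. The groups did not overlap, and here NJT-2 replicate 2 lay between the other NJT-2 libraries. Its mean was 0.99 ± 0.15 (SD, n = 3) with vehicle against 14.9 ± 3.91 (SD, n = 3) with NJT-2, so that *Rbp4* had the narrowest relative spread of the members with NJT-2, a coefficient of variation of 26.2% against 47.6% for *Adipoq*. The difference was 3.69 on the log2 scale (SE 0.47, adjusted p = 0.027, edgeR), a fitted fold of 12.9 and the p of rank 6. The call held in edgeR without NJT-2 replicate 2 (3.64, adjusted p = 0.0304). It was lost on leaving out any other single library, with an adjusted p of 0.0617, 0.243, and 0.0751 without vehicle replicates 1, 2, and 3 and of 0.11 and 0.1 without NJT-2 replicates 1 and 3 (edgeR). Few genes were called higher at all in the fits that lost the call. Of the 3705 tested genes, these were 0, 0, and 2 without vehicle replicates 1, 2, and 3. Without NJT-2 replicates 1 and 3 they were 1 and 1. The log2 fold change of *Rbp4* in the 6 fits that left out a single library lay between 3.48 and 3.90.

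*Retn* was a low transcript in both groups. Its FPKM was 0.86, 0.27, and 0.15 with vehicle, from 80, 40, and 18 counts. It was 4.75, 1.94, and 4.65 with NJT-2, from 533, 215, and 513 counts. The groups did not overlap, but the vehicle libraries were spread over a wide range, with replicate 1 the highest, and NJT-2 replicate 2 was the lowest of its group. Its mean was 0.427 ± 0.38 (SD, n = 3) with vehicle against 3.78 ± 1.59 (SD, n = 3) with NJT-2. The log2 fold change of 2.67 (SE 0.92) did not pass the test (unadjusted p = 0.0206, adjusted p = 0.219 in edgeR). DESeq2, run as an alternative, gave a log2 fold change of 2.68 and an adjusted p of 0.0416 and called *Retn* higher, together with *Adipoq* and *Rbp4*, where it called 4.4% of all tested genes higher. Without vehicle replicate 1 and NJT-2 replicate 2, the libraries that stood apart, *Retn* was called in edgeR (log2 fold change 4.38, adjusted p = 0.00469). In that fit 255 of the 3705 tested genes were called higher, and the libraries left out were chosen from the same data. Without vehicle replicate 1 alone the log2 fold change was 4.05 (adjusted p = 0.0958, edgeR).

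*Rarres2* had the opposite sign. Its FPKM was 127.04, 89.14, and 49.25 with vehicle against 12.45, 55.17, and 9.19 with NJT-2. The groups overlapped, as NJT-2 replicate 2 lay above vehicle replicate 3, while NJT-2 replicates 1 and 3 were below every vehicle library. Its mean was 88.5 ± 38.9 (SD, n = 3) with vehicle against 25.6 ± 25.7 (SD, n = 3) with NJT-2, a spread as large as the mean in the second group. The log2 fold change was -2.05 (SE 0.84) and did not pass the test (unadjusted p = 0.0418, adjusted p = 0.27 in edgeR). DESeq2 did not call it either (log2 fold change -2.01, adjusted p = 0.0907), where it called 3.4% of all tested genes lower. The value depended on single libraries, with a log2 fold change of -3.39 without NJT-2 replicate 2 (adjusted p = 0.0857, edgeR) and of -1.36 without vehicle replicate 1 (adjusted p = 0.527, edgeR). Without both of these libraries it was -2.68 and *Rarres2* was called lower (adjusted p = 0.00817, edgeR). In that fit 227 of the 3705 tested genes were called lower.

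The FPKM groups of *Adipoq*, *Rbp4*, and *Retn* did not overlap, with NJT-2 higher. Of all tested genes, 14.4% had this pattern, and 11.5% had non-overlapping groups with NJT-2 lower, which none of the members had.

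**Figure D1:**
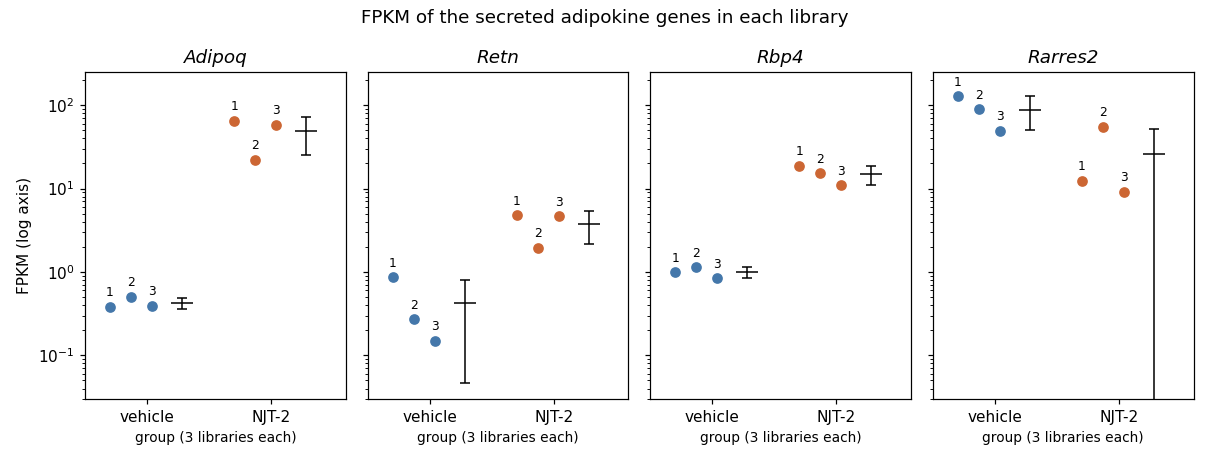
FPKM of the 4 adipokine genes on a log axis, with 1 point per library (numbered by replicate) and the mean ± SD of the 3 libraries of each group beside them. The lower bar of *Rarres2* with NJT-2 runs off the axis because the SD (25.7) exceeds the mean (25.6). *Adipoq* goes from a mean of 0.423 to 48.4 and *Rbp4* from 0.99 to 14.9, while NJT-2 replicate 2 of *Rarres2* (55.17) lies within the vehicle range.

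**Figure D2:**
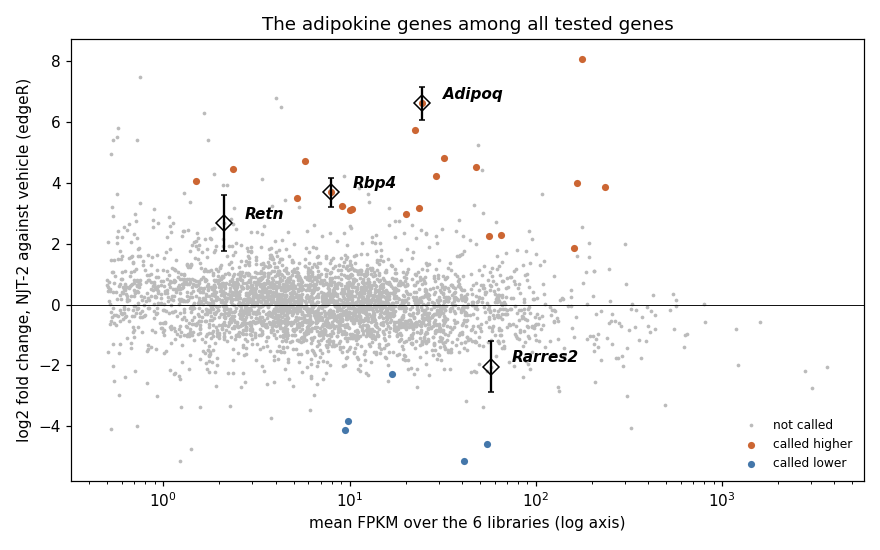
Log2 fold change of NJT-2 against vehicle (edgeR) against the mean FPKM of the 6 libraries (log axis) for the 3705 tested genes, with called genes in colour and the 4 members as diamonds with their standard errors. *Adipoq* (6.62) and *Rbp4* (3.69) are among the genes called higher, and *Retn* (2.67) and *Rarres2* (-2.05) are not called.

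The make-up of the adipokine transcripts was compared by the share of each member in the summed FPKM of the 4, which does not depend on library size. The sum itself was 129.27, 91.05, and 50.63 with vehicle against 100.54, 94.29, and 83.19 with NJT-2, so the groups overlapped in the total. *Rarres2* held 98.27%, 97.90%, and 97.27% of it with vehicle, against 12.38%, 58.51%, and 11.05% with NJT-2. *Adipoq* held 0.29%, 0.55%, and 0.77% with vehicle against 64.28%, 23.37%, and 70.26% with NJT-2. Nearly all of the adipokine sum was chemerin transcript with vehicle, and adiponectin transcript was the largest part in NJT-2 replicates 1 and 3 but not in replicate 2. *Rbp4* held 0.77%, 1.25%, and 1.66% with vehicle against 18.61%, 16.06%, and 13.10% with NJT-2. *Retn* held 0.67%, 0.30%, and 0.30% with vehicle, above *Adipoq* in replicate 1, and was the smallest part in each NJT-2 library with 4.72%, 2.06%, and 5.59%.

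**Figure D3:**
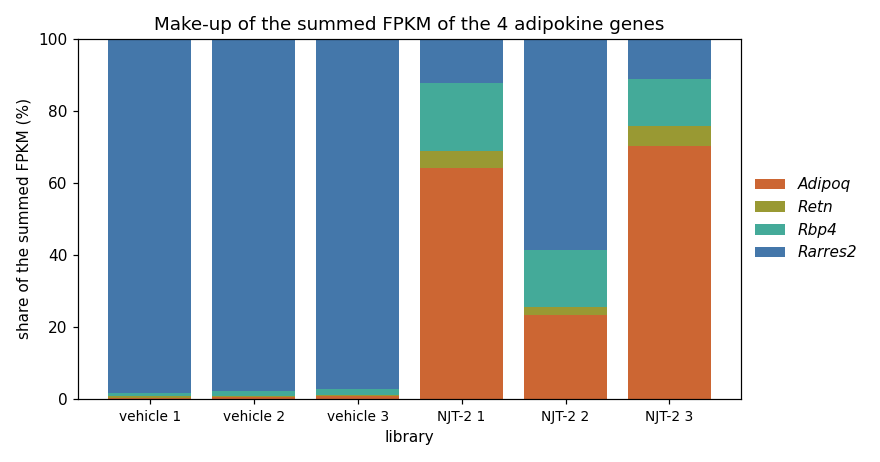
Share of each member in the summed FPKM of the 4 adipokine genes, as stacked bars per library. *Rarres2* fills more than 97% of each vehicle bar and 12.38%, 58.51%, and 11.05% of the NJT-2 bars of replicates 1, 2, and 3, where *Adipoq* and *Rbp4* take most of the rest.

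In the order of the levels with vehicle, *Rarres2* was above *Rbp4* in 3 of 3 libraries, by 6.25 ± 0.58 (mean log2 difference of FPKM + 0.1, SD). *Rbp4* was above *Retn* in 3 of 3 libraries, by 1.28 ± 0.95. *Retn* and *Adipoq* did not differ beyond their spread, with a log2 difference of *Retn* minus *Adipoq* of -0.22 ± 1.07. With NJT-2, *Adipoq* was above *Rarres2* in 2 of 3 libraries (1.23 ± 2.22) and *Rarres2* above *Rbp4* in 1 of 3 (0.34 ± 1.32), so that the order of these neighbours was not set beyond the spread. *Rbp4* was above *Retn* in 3 of 3 libraries, by 2.02 ± 0.85.

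Ratios between members within a library were compared between the groups in 6 pairs, as log2(FPKM + 0.1) differences with a two-sided exact permutation test. With 3 libraries against 3, no p below 0.1 is possible, so none of the 6 pairs can pass 0.05. The log2 ratio of *Adipoq* to *Rarres2* was -7.31 ± 0.70 with vehicle against 1.23 ± 2.22 with NJT-2 (SD, n = 3 each), higher in all NJT-2 libraries by 8.54 on average (exact permutation p = 0.1, adjusted p = 0.12 over the 6 pairs). That of *Rbp4* to *Rarres2* was higher by 5.91 and that of *Retn* to *Rarres2* by 5.16, with the same exact permutation p of 0.1 and adjusted p of 0.12. Among the other 3 members, *Adipoq* had the largest differences. Its log2 ratio to *Retn* went from 0.22 ± 1.07 to 3.60 ± 0.15 (SD, n = 3 each) and its ratio to *Rbp4* from -1.06 ± 0.12 to 1.58 ± 0.95, both with an exact permutation p of 0.1 and an adjusted p of 0.12. The ratio of *Retn* to *Rbp4* differed by -0.74, which was within the spread (exact permutation p = 0.4, adjusted p = 0.4).

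The members were also set against a list of adipocyte markers (lipid droplet, lipase, and glucose transport genes), of which 9 of 14 were in the table. Their summed FPKM was 104.16, 78.62, and 81.53 with vehicle against 1767.94, 461.43, and 1402.16 with NJT-2, and *Plin4*, *Lipe*, *Pnpla2*, *Cd36*, and *Gpd1* of the 8 tested were called higher in edgeR, against 0.567% of all tested genes. *Cidea* was at or near 0 in every library. With vehicle *Cd36* was 0.13 to 2.95 FPKM, *Gpd1* 0.45 to 1.13, and *Slc2a4* 0 to 0.13, while *Pnpla2* was 14.11 to 18.95. With vehicle *Lpl* alone made 78.79, 55.14, and 55.62 FPKM of the marker sum, so the vehicle percentages below are largely ratios to *Lpl*. With NJT-2 it made 493.78, 92.72, and 373.33 FPKM, a smaller part. As a percentage of the marker sum, *Adipoq* was 0.365%, 0.636%, and 0.478% with vehicle against 3.66%, 4.78%, and 4.17% with NJT-2. On this scale NJT-2 replicate 2 was the highest and not the lowest of its group, and the groups stayed apart. *Retn* was 0.826%, 0.343%, and 0.184% with vehicle against 0.269%, 0.42%, and 0.332% with NJT-2, and its groups overlapped. *Rbp4* was 0.95%, 1.45%, and 1.03% with vehicle against 1.06%, 3.28%, and 0.777% with NJT-2, overlapping too. *Rarres2* was 122%, 113%, and 60.4% with vehicle against 0.704%, 11.96%, and 0.655% with NJT-2.

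Markers of other cell types varied with the libraries as well. The summed FPKM of 5 of 12 macrophage markers was 9.67 to 12.8 with vehicle against 31.61 to 59.14 with NJT-2. Of the 4 tested, only *Adgre1*, the gene of the macrophage antigen F4/80, was called higher (log2 fold change 3.23, adjusted p = 0.0408, edgeR), against 0.567% of all tested genes. *Csf1r* did not differ (log2 fold change 0.03, adjusted p = 0.974, edgeR). *Cd68* (1.79) and *Fcgr1* (3.63, groups overlapping) were not called in this test either. The groups of *Cd68* did not overlap, with NJT-2 higher, as in 14.4% of all tested genes. DESeq2 called *Cd68* higher (adjusted p = 0.000152), where it called 4.4% of all tested genes higher. *Aif1* stayed below 0.5 FPKM. The part of these cells in the member values was not tested. The summed FPKM of 5 of 13 fibroblast and preadipocyte markers was 227.29 to 999.23 with vehicle against 443.63 to 487.54 with NJT-2, and *Pi16* was called lower in edgeR. Much of this sum was *Col1a1*, at 118 to 691.41 FPKM with vehicle. All 5 of these markers had a log2 fold change below 0, with a median of -1.35, and *Pi16* and *Pdgfrb* had non-overlapping groups with NJT-2 lower. Over all tested genes, 0.135% were called lower and 11.5% had non-overlapping groups with NJT-2 lower. Of the 3705 tested genes, 1822 had a log2 fold change below 0, and the median was 0.02. The mesothelial marker *Krt19* was 0.58, 87.95, and 0.63 with NJT-2 and 2.50 to 3.45 with vehicle. Within the NJT-2 group, the library with the highest *Rarres2* value (55.17 FPKM) was also the one with the highest *Krt19*. Vehicle replicates 1 and 2 had more *Rarres2* (127.04 and 89.14 FPKM) at a *Krt19* of 3.45 and 2.74. The other mesothelial marker in the table, *Wt1*, was 0.67 FPKM in NJT-2 replicate 2 and at most 0.10 elsewhere. The part of such cells in the *Rarres2* value was not tested. Endothelial markers summed to between 0.40 and 2.42 FPKM and the liver marker *Ahsg* was at most 0.42.

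Adiponectin is folded, oxidised, hydroxylated, and retained by enzymes of the endoplasmic reticulum before release. Of the 8 genes listed for this assembly 4 were tested. Among these, 1 was called higher and none lower, against 0.567% and 0.135% of all tested genes. Their median log2 fold change was 0.51, against 0.02 over all tested genes. *Ero1l*, an oxidase known to promote the release of adiponectin, had an FPKM of 17.39, 29.57, and 38.77 with vehicle against 263.06, 777.19, and 281.72 with NJT-2. It rose by 3.86 on the log2 scale (SE 0.58, adjusted p = 0.0408, edgeR), and NJT-2 replicate 2, the lowest of its group for *Adipoq*, was the highest for *Ero1l*. The *Ero1l* call was lost without any single library other than NJT-2 replicate 2, with an adjusted p between 0.0851 and 0.3 (edgeR). In those fits between 0 and 2 of the 3705 tested genes were called higher. *P4hb*, a protein disulfide isomerase, had a log2 fold change of 0.35 (SE 0.50) and *Plod3*, a lysine hydroxylase, of -0.13 (SE 0.36). Both signs turned under other settings, with -0.39 for *P4hb* without NJT-2 replicate 2 and 0.05 for *Plod3* with the library totals that the FPKM values imply in place of TMM factors.

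Of the 8 genes listed for signaling below the adiponectin receptors 2 were tested and none was called. *Ppara*, named here after its values were seen, had a mean FPKM of 0.48 and was not tested. Its FPKM was 0, 0.03, and 0.08 with vehicle against 1.52, 0.31, and 0.95 with NJT-2, so the groups did not overlap. The adaptor *Appl2* had a log2 fold change of 1.24 (adjusted p = 0.292, edgeR) and the kinase *Stk11* of -0.74 (adjusted p = 0.312, edgeR). Single libraries moved both, to 0.41 for *Appl2* without NJT-2 replicate 2 and to -0.40 for *Stk11* without vehicle replicate 1. The 12 receptors and carriers of these adipokines were not analysed here.

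*Rbp4* carries retinol, and of 24 genes of retinoid handling 5 were tested. None was called in edgeR. Of the 5, 4 were below 0, with a median log2 fold change of -0.82. Over all tested genes 50.8% were above 0 and the median was 0.02. Untested genes of the list are named here after their values were seen. *Rxrg* was 0 FPKM in each vehicle library against 1.2, 0.17, and 0.81 with NJT-2. *Aldh1a3*, at most 0.15 FPKM, was also higher in every NJT-2 library, while *Rarb* and *Cyp26a1* overlapped. DESeq2 called *Aldh1a2* and *Rarg* lower, where it called 3.4% of all tested genes lower. Without both libraries that stood apart, edgeR also called both genes lower, where 227 of 3705 tested genes were. *Aldh1a2*, an enzyme that makes retinoic acid, had an FPKM of 3.05, 14.48, and 16.52 with vehicle against 1.13, 1.99, and 1.28 with NJT-2, so the groups did not overlap. The log2 difference of -2.96 (SE 0.57, adjusted p = 0.0784, edgeR) did not pass, while it was called lower by DESeq2 (adjusted p = 4.62e-05). The retinoic acid receptor *Rarg* had a log2 fold change of -1.21 (adjusted p = 0.164 in edgeR and 0.0367 in DESeq2) and its partner *Rxra* of 0.01 (adjusted p = 0.995, edgeR), a sign that turned under several settings.

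Of 35 other factors that adipose tissue is known to release, 7 were tested and none was called in edgeR. DESeq2 called *Lpl* and *Nampt* higher (adjusted p = 0.0184 and 0.00147), where it called 4.4% of all tested genes higher. Without both libraries that stood apart, edgeR called *Lpl*, *Nampt*, and *Igf1* higher, where 255 of 3705 tested genes were. *Nampt* and *Igf1* are named here after their values were seen. The log2 fold change was above 0 for 6 of them, with a median of 1.13, against 50.8% above 0 and a median of 0.02 over all tested genes. Lipoprotein lipase (*Lpl*), which is also on the adipocyte list, had an FPKM of 78.79, 55.14, and 55.62 with vehicle against 493.78, 92.72, and 373.33 with NJT-2 (log2 fold change 2.04, adjusted p = 0.2, edgeR). NJT-2 replicate 2 was the lowest of its group for *Lpl*, as for *Adipoq* and *Retn*. The same library was the highest for *Vegfa*, a growth factor of blood vessels, with 341.08 FPKM against 56.88 and 56.57 in NJT-2 replicates 1 and 3 (log2 fold change 1.67, adjusted p = 0.304, edgeR). Without this library the log2 fold change of *Vegfa* was 0.15. *Angptl4*, an inhibitor of lipoprotein lipase, was at 166.16 FPKM there against 46.34 and 41.05 (log2 fold change 0.55, adjusted p = 0.604, edgeR). Without NJT-2 replicate 2 the log2 fold change of *Angptl4* was -0.49. Of 15 relatives of adiponectin and resistin 3 were tested and none was called, with log2 fold changes of 0.19 for *C1qtnf1*, 0.71 for *C1qtnf12*, and -1.37 for *C1qtnf6* (-0.64 without vehicle replicate 1).

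Of 16 nuclear regulators of adipocyte genes 8 were tested. None was called by edgeR, and all 8 had a log2 fold change above 0, with a median of 1.55, against 50.8% and 0.02 over all tested genes. The groups did not overlap for 5 of them, with NJT-2 higher, against 14.4% of all tested genes. DESeq2 called *Pparg*, *Nr1h3*, *Ncor1*, and *Ncoa1* higher (*Ncoa1* is named here after its values were seen), against 4.4% of all tested genes. *Pparg*, which encodes the receptor itself, had an FPKM of 1.06, 5.68, and 6.41 with vehicle against 37.26, 13.01, and 33.71 with NJT-2. The log2 difference of 2.63 (SE 0.61, adjusted p = 0.119, edgeR) did not pass, while DESeq2 called it higher (adjusted p = 0.000586). The NJT-2 libraries had the same order for *Pparg* as for *Adipoq*, with replicate 1 the highest and replicate 2 the lowest. The lipogenic factor *Srebf1* had a log2 fold change of 1.003 (adjusted p = 0.253, edgeR) and the corepressor *Ncor1* of 1.49 (adjusted p = 0.215, edgeR). Without both libraries that stood apart, edgeR called *Pparg*, *Nr1h3*, *Srebf1*, and *Ncoa1* higher, where 255 of 3705 tested genes were.

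The genes whose log2 scaled counts (CPM) followed each member most closely over the 6 libraries were found by Pearson's r, as a description of points that share their group, library, and depth. For *Adipoq* these were *Trpv2* (0.997), *Esyt1* (0.995), and *Cmbl* (0.992), among 100 genes with an r over 0.9. *Rbp4* was followed by *Rnf185* (0.990), *Cd68* (0.989), and *Esyt1* (0.987), of 63 such genes. *Retn* was followed by *Nr1h3* (0.995), *Ppif* (0.987), and *Grpel2* (0.979), of 35. For *Rarres2* they were *Tmem138* (0.992), *Sap18* (0.991), and *Bcl2l1* (0.989), of 133. *Esyt1* was near the top for both *Adipoq* and *Rbp4*. None of these genes was called in edgeR with all libraries unless the trend with gene length was taken out. With that trend taken out, *Trpv2*, *Cmbl*, *Rnf185*, and *Cd68* were called higher, where 32 of the 3705 tested genes were. DESeq2 called *Trpv2*, *Cmbl*, *Nr1h3*, *Rnf185*, and *Cd68* higher (adjusted p from 6.6e-06 to 0.0286), and other settings called some of the 11 as well. In edgeR their log2 fold changes lay nearer to 0 than that of the member they followed.

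**Figure D4:**
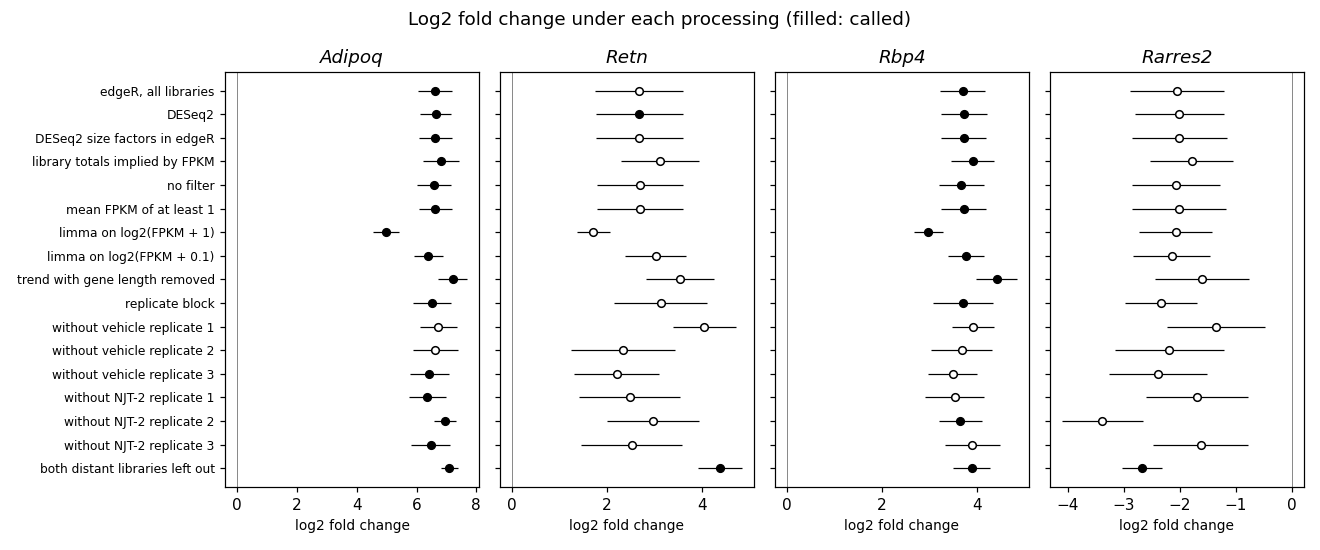
Log2 fold change of each member (point, with its standard error) in edgeR with all libraries and under 16 alternative settings, filled where the gene was called. "Both distant libraries" are vehicle replicate 1 and NJT-2 replicate 2. The sign of each member is the same in all rows, while the calls change with the setting, with *Adipoq* called in 14 of 16 alternatives, *Rbp4* in 11, *Retn* in 2, and *Rarres2* in 1.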

How the data were processed

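RNA-seq was measured in 6 libraries, 3 per group, grouped by the sample titles. Per the labels and the submitters' processing notes, polyadenylated RNA was made into libraries with a dUTP kit, and cutadapt 1.9, HISAT2 2.2.1, and StringTie 2.1.6 were used on GRCm38; the notes also name DESeq2 and edgeR. How reads were counted, with which annotation release and whether by strand, is not given in the sources used here. The authors deposited raw read counts per gene, not normalized, and FPKM values computed from those counts and rounded. Of 4865 lines analysed, 4864 were complete, and all 12 value columns matched a library by name. These genes are the first of the table by Ensembl number. The deposited annotation and GENCODE M21 gave positions.

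Counts were tested in R 4.3.3 with edgeR 4.0.16 (quasi-likelihood, TMM, mean FPKM of at least 0.5, Benjamini-Hochberg over all genes tested). Alternatives used DESeq2 1.42.0 and limma 3.58.1. Scripts were tested on simulated data. The members, lists, and tests were chosen with earlier results of these data known, and the sequence patterns were chosen after the files were seen. Named list genes are those called and the up to 3 with the highest mean FPKM per list, and the 3 genes most correlated with each member (log2 CPM, prior count 2). A difference on log2(FPKM + pseudocount) understates the change of low genes.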

Additional observations from a re-analysis of the deposited data

How the results depend on the processing

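All 4 members kept their direction under all 16 alternatives. The log2 fold change ranged from 4.98 to 7.21 for *Adipoq*, from 1.71 to 4.38 for *Retn*, from 2.97 to 4.40 for *Rbp4*, and from -3.39 to -1.36 for *Rarres2*, and the adjusted p from 9.42e-36 to 0.12, 0.00469 to 0.47, 1.69e-12 to 0.243, and 0.00817 to 0.527. Leaving out each library in turn (edgeR), *Adipoq* ranged from 6.36 to 6.95, *Rbp4* from 3.48 to 3.90, genes called higher from 0 to 56, and genes called lower from 0 to 19. Fewer libraries were then fitted. DESeq2 gave 2.68 for *Retn*, with 163 genes called higher and 126 lower. Without both distant libraries *Retn* was 4.38 and *Rarres2* -2.68, with 255 genes called higher and 227 lower. The other counts that moved were 32 higher and 8 lower with each library's trend with gene length taken out, 9 lower with no filter, 8 lower at a mean FPKM of at least 1, and 10 lower with limma at either pseudocount. The cause was not tested. With the library totals and with limma the median over all tested genes was 0.16, 0.14 (pseudocount 1), and 0.17 (pseudocount 0.1) on the log2 scale, against 0.02.

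With the replicate number as a block, 43 genes were called higher and 14 lower, and no call of a member changed. The correlations of the deviations of same-numbered libraries were 0.179, 0.032, and -0.207, and 3 of 6 libraries correlated best with their own number. With 3 libraries per group, these values cannot show whether the numbers pair the libraries.

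Some log2 fold changes turned sign. On leaving out single libraries the ranges were -0.39 to 0.64 for *P4hb*, -0.39 to 0.02 for *Plod3*, -0.28 to 0.38 for *Rxra*, -0.49 to 0.90 for *Angptl4*, and -0.11 to 0.58 for *C1qtnf1*. Other such values were *P4hb* at -0.37 and *Angptl4* at -0.45 without both distant libraries, *Vegfa* (1.67 with all libraries) at -0.13 there, *Plod3* at 0.05 with the library totals and 0.03 with limma, and *Rxra* at -0.01 with no filter, -0.21 without the length trend, and -0.12 with the block. The directions of the 6 ratios held under each alternative. Depth limits *Retn* and *Adipoq* with vehicle, at 18 to 80 counts.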
